A study of Mus musculus with 30 samples.

Results

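Foxo1, Foxo3, Foxo4 and Foxo6 encode the FoxO family of forkhead transcription factors, and their mRNA was followed here in AML12 cells, a mouse hepatocyte line. The genes were taken by symbol from the 49089 Ensembl identifiers in the count files, and all 4 were among the 11368 genes with enough counts to be tested. Foxo4 mRNA fell after insulin stimulation in cells of all 4 genotypes: it fell by 39.1% in Control, fell by 36.3% in FoxK1 KD, fell by 42.5% in FoxK2 KD and fell by 25.6% in DKD cells, where the call was lost in 4 of 7 fits that left out 1 sample. Foxo3 fell by 17.5% in Control and fell by 19.1% in FoxK1 KD cells, while Foxo1 fell by 26% in FoxK1 KD and fell by 24.7% in FoxK2 KD cells. The Foxo3 call in Control was lost when only the Control groups were fitted. Both Foxo1 calls were lost in some fits that left out 1 sample. Insulin effects in Control, FoxK1 KD and FoxK2 KD cells also crossed a divide between libraries, described below, that cannot be told apart from them. Knockdown of FoxK1, FoxK2 or both gave no difference from Control in a FoxO mRNA that edgeR called with all samples, although limma-voom called Foxo6 in DKD cells at basal. The sparsely counted Foxo6 was 2.03-fold higher in DKD than in FoxK1 KD cells at basal, a call that was lost once GC content and length were taken out of the counts.

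FoxO proteins bind forkhead sites in DNA and, in the unstimulated cell, activate genes for gluconeogenesis, insulin receptor signalling, cell cycle arrest, atrophy and autophagy. Insulin acts through Akt, which phosphorylates FoxO proteins, whereupon 14-3-3 proteins bind them and they leave the nucleus. FoxO6 is the member that shuttles least. In liver, FoxO1 is best known for driving the fasting programme. The mRNA levels given here say nothing of where the proteins lie or how they are phosphorylated.

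The RNA came from 30 samples in 8 groups. Control cells received nonsilencing siRNA, FoxK1 KD and FoxK2 KD cells siRNA against the gene of that name, and DKD cells both, each by transient transfection, so that every group had been transfected. All cells were starved of serum overnight and were then analysed either at basal, without insulin, or after insulin stimulation (100 nM for 6 h). The labels give the basal samples a treatment time of 0, while the protocol speaks of mock treatment. There were 4 samples per group, but only 3 for insulin-stimulated Control and DKD cells. Nothing in the labels says that samples of a group came from separate cultures, so p-values measure the spread between these samples, which may be technical.

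The libraries held from 2141460 to 5668270 counted reads. Foxk1 mRNA was 45.2% to 64.6% of the Control level in FoxK1 KD and DKD cells, and Foxk2 mRNA was 33.7% to 40.4% of it in FoxK2 KD and DKD cells, so a part of both messages remained. Of the hepatocyte markers, Krt8, Krt18, Apob and Hnf4a were well counted, whereas Apoa1 and Fgb were at 0 in 5 and 6 samples. The others were lower than those 4, with a median of 6.77 CPM for Alb (2.5 to 65.2), 10.6 for Cebpa, 14.3 for Trf and 36 for Ttr. The cholangiocyte markers Krt19 and Sox9 were also counted in all samples, and Epcam was at 0 in every one. Across the 30 samples, 52 genes were lower and 83 higher in all 12 basal Control, FoxK1 KD and FoxK2 KD samples than in all 18 others, basal DKD included. The pseudogene Rps2-ps10, for example, held 0 to 2 counts in the former and 13 to 46 in the latter. Insulin effects in Control, FoxK1 KD and FoxK2 KD cells, and comparisons of basal DKD cells with other basal cells, crossed this divide, and whatever separates these sets of libraries cannot be told apart from them. The insulin effect in DKD cells, and the comparisons of the single knockdowns with Control, lay within one side.

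In the mouse genome (GRCm38, GENCODE M21), Foxo1 lies on chromosome 3 at 52268336 to 52353221 on the plus strand, Foxo3 on chromosome 10 at 42181841 to 42276755 on the minus strand, Foxo4 on chromosome X at 101254528 to 101260873 on the plus strand, and Foxo6 on chromosome 4 at 120267079 to 120287349 on the minus strand. Counts were made over exons, which together span 8665, 7571, 3485 and 2615 bases. The GC content of the longest transcript runs from 48.5% in Foxo1 through 53.2% in Foxo3 and 55.2% in Foxo4 to 69.1% in Foxo6. Exons of Foxo1 share 674 bases with Gm20402, an antisense gene, which had 0 counts in all samples. The strand setting of the counting is not given in the sources used here.

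Since Foxo1 and Foxo3 both fell with insulin stimulation in FoxK1 KD cells, the bases just before their first annotated exon are shown (RefSeq promoter table, GRCm38.p6), 5′ to 3′ on the strand of the gene, with CG dinucleotides in capitals. The Foxo1 stretch is chr3:52268087-52268335 on the plus strand (249 bases, 55.8% GC, 20 CG dinucleotides), and the Foxo3 stretch is chr10:42276756-42276945 on the minus strand (190 bases, 81.6% GC, 28 CG dinucleotides).
Foxo1: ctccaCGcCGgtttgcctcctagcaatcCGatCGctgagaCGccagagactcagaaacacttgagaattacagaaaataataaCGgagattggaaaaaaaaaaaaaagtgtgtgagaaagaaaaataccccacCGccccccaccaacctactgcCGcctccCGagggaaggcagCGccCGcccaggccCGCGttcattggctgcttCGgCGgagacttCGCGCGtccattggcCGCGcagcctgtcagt
Foxo3: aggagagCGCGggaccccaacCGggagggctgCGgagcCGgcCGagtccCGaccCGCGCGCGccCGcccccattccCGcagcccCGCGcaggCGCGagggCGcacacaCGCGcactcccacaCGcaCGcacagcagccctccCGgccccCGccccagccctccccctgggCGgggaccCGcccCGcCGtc
The forkhead core motifs GTAAACA and GTAAATA were searched on both strands of the full 300-base windows. Neither was found for Foxo1 or Foxo3, while 3.65% and 3.04% of the 32851 promoter windows in the table held them, and 6.54% held at least one. The absence says only that these letters are not in these windows. Foxo4 and Foxo6 were not matched in that table.

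**Figure D1:**
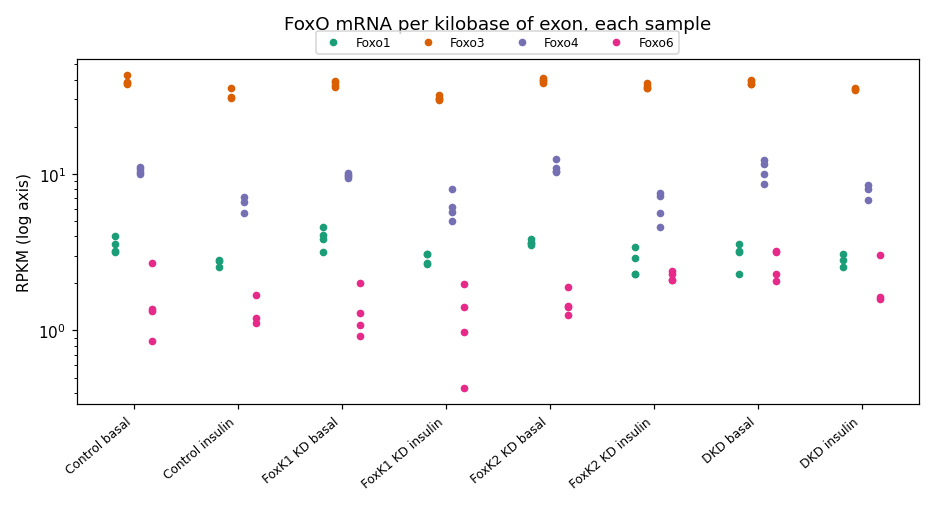
CPM per kilobase of exon (RPKM, log axis) of each FoxO gene in each of the 30 samples, by group on the horizontal axis, with 1 point per sample. Foxo3 sits highest in every group (29.8 to 42.8 RPKM), followed by Foxo4 (4.61 to 12.4), while Foxo1 (2.28 to 4.56) and Foxo6 (0.428 to 3.23) meet in a few samples.

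Foxo3 was the most abundant FoxO mRNA in AML12 cells. On the per-length scale (RPKM, CPM divided by the kilobases of merged exons), Foxo3 had a median level of 37 RPKM over the 30 samples, against 9.03 for Foxo4, 3.16 for Foxo1 and 1.61 for Foxo6. The order was almost fixed. Foxo3 was highest and Foxo4 exceeded Foxo1 in 30 of 30 samples, and Foxo1 exceeded Foxo6 in 28 of 30. Foxo3 made up 68.6% to 79.1% of the summed RPKM of the family, and Foxo1 4.04% to 8.45%. The summed level was 54.9 ± 3.7 RPKM (SD, n = 4) in basal Control cells and 42.9 ± 2 (n = 3) after insulin stimulation. In DKD cells it was 54.8 ± 1.7 (n = 4) and 47.3 ± 1.4 (n = 3). The Foxo4 share of the sum went from 19.2% at basal to 15% after insulin stimulation in Control cells and from 19.9% to 13.1% in FoxK2 KD cells.

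**Figure D2:**
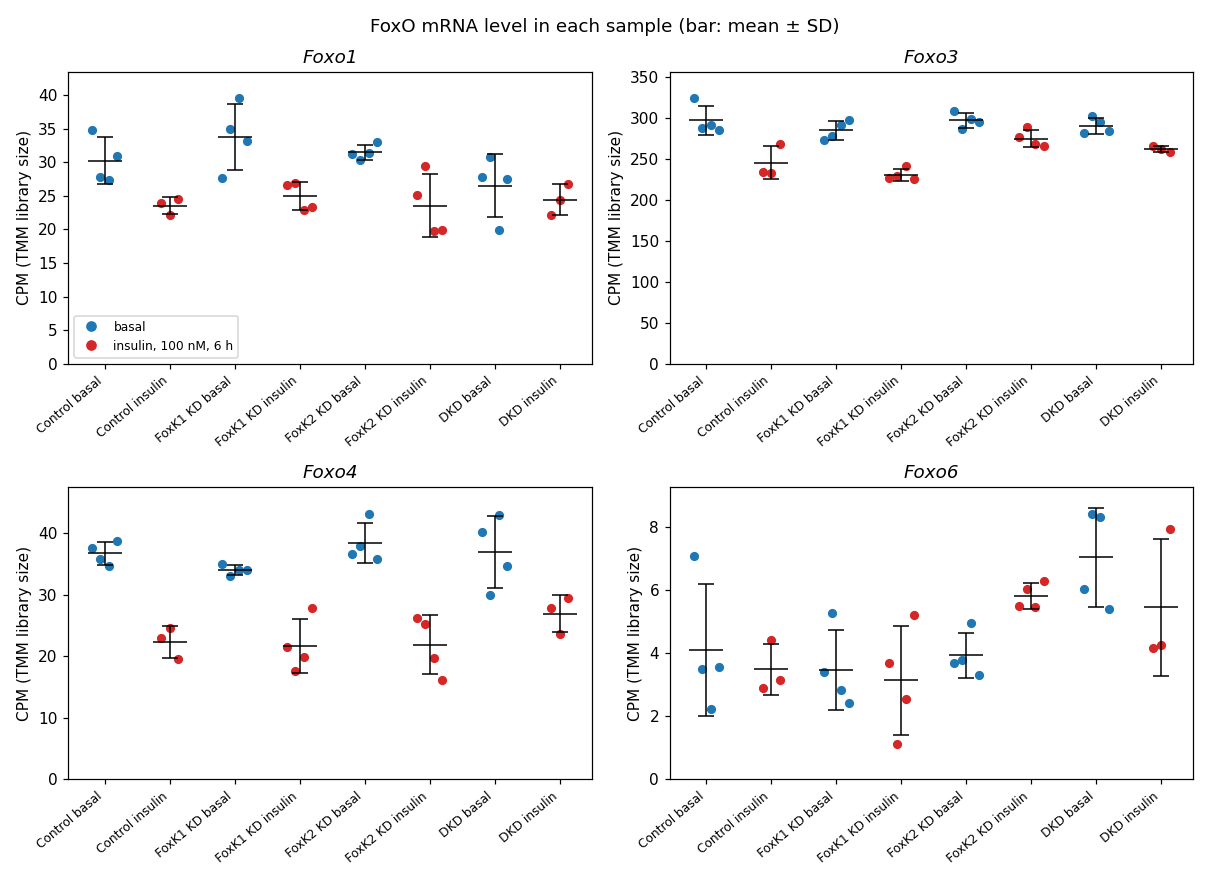
CPM of the FoxO genes in each sample, by group on the horizontal axis, with blue points for basal and red points for insulin-stimulated samples and bars for the mean ± SD. Foxo4 falls with insulin in all genotypes without overlap of the groups. Foxo3 in Control, FoxK1 KD and DKD cells and Foxo1 in Control, FoxK1 KD and FoxK2 KD cells fall by less, also without overlap. Of these, Foxo3 in DKD and Foxo1 in Control cells were not called. Foxo6 stays below 9 CPM with overlapping groups in most comparisons.

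The first comparison asked how insulin stimulation moved the FoxO mRNAs within each genotype. Levels of a gene between samples are given as CPM, the counts scaled to 1000000 per library on library sizes adjusted by the TMM method. The test was edgeR's quasi-likelihood test, and a gene was called when its p, adjusted by Benjamini-Hochberg over the 11368 genes of the comparison, was below 0.05. Of the 4 FoxO genes, 2 were called in Control, 3 in FoxK1 KD, 2 in FoxK2 KD and 1 in DKD cells, all of them lower after insulin stimulation. Over all genes tested, 25.4%, 31.6%, 28.1% and 16.3% were called in the same comparisons, and 13.1%, 15.4%, 13.7% and 7.99% were called lower. As in any bulk sample, fewer cells that hold a message and less of it per cell cannot be told apart.

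Among markers of other cell types, the summed macrophage or leukocyte markers were lower in insulin-stimulated than in basal samples of every genotype. The 4 macrophage or leukocyte markers summed to 8.22 to 12.9 CPM in basal and 4.09 to 6.33 CPM in insulin-stimulated Control samples, and to 17.7 to 22.1 and 10.5 to 13.7 CPM in FoxK1 KD samples. They went from 11.1 to 13.4 CPM to 4.09 to 6.61 in FoxK2 KD samples and from 15.7 to 18 CPM to 6.63 to 9.51 in DKD samples. Most of this was Csf1r, the receptor for a macrophage growth factor, while Adgre1, the defining marker, was at 0 in all 30 samples. The 4 cholangiocyte markers summed to 534 to 610 CPM in basal and 636 to 756 CPM in insulin-stimulated FoxK1 KD samples, and to 622 to 723 and 725 to 869 CPM in FoxK2 KD samples. Their ranges overlapped in Control (639 to 1070 and 758 to 806 CPM) and in DKD samples (643 to 694 and 673 to 763 CPM). The part of these markers in the FoxO values was not tested.

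Foxo4, a member that also restrains the cell cycle, showed the steepest fall. Basal Control samples held 34.7, 35.8, 37.7 and 38.7 CPM, and insulin-stimulated ones 19.5, 22.9 and 24.7. FoxK1 KD samples went from 33.0, 34.0, 34.1 and 35.1 CPM at basal to 17.5, 19.9, 21.4 and 27.8 after insulin stimulation. Each insulin-stimulated sample thus lay below each basal sample of its genotype. FoxK2 KD cells had 35.8, 36.7, 37.9 and 43.2 CPM at basal and 16.1, 19.7, 25.3 and 26.2 after insulin stimulation. In DKD cells the basal values were 29.96, 34.7, 40.2 and 43.0 CPM and the insulin values 23.6, 27.8 and 29.4. Neither genotype overlapped between treatments, although the DKD groups came within 1 CPM of each other. The DKD comparison is the one that lies within the set of 18 libraries described above. The log2 fold change was -0.72 ± 0.14 (SE) in Control (adjusted p = 0.000322), -0.65 ± 0.14 in FoxK1 KD (adjusted p = 0.000586) and -0.80 ± 0.13 in FoxK2 KD cells (adjusted p = 1.71e-05). In DKD cells it was -0.43 ± 0.14 (adjusted p = 0.036), and this call ended when DKD basal replicate 1 or 3 or DKD insulin replicate 1 or 2 was left out (adjusted p = 0.107, 0.0973, 0.0824 and 0.15). It also ended when genes with as little as 1 count were kept (adjusted p = 0.0569).

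Foxo3, the family member tied to stress resistance and autophagy, fell by less but on far higher counts, 570 to 1600 per sample. Basal Control samples had 285.7, 288.6, 291.5 and 324.4 CPM and insulin-stimulated ones 232.6, 234.9 and 268.8. FoxK1 KD cells had 273.4, 277.9, 291.9 and 298.3 CPM at basal and 225.7, 226.8, 230.0 and 241.3 after insulin stimulation. The groups were separate in both genotypes, and the highest basal Control value was that of replicate 1. The log2 fold change was -0.28 ± 0.07 (adjusted p = 0.00304) in Control and -0.31 ± 0.07 (adjusted p = 0.000468) in FoxK1 KD cells. Fitted on the Control groups alone, the Control change of -0.27 had an adjusted p of 0.142 and was not called.

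In the other genotypes Foxo3 did not pass the test. FoxK2 KD samples had 286.6, 295.6, 299.1 and 309.0 CPM at basal and 266.5, 268.2, 277.1 and 289.4 after insulin stimulation, and the groups overlapped. DKD samples had 282.0, 284.0, 295.2 and 302.8 CPM at basal against 258.2, 262.7 and 265.6, without overlap. The log2 fold change was -0.11 ± 0.06 (adjusted p = 0.195) in FoxK2 KD and -0.15 ± 0.07 (adjusted p = 0.14, unadjusted p = 0.0381) in DKD cells. With GC content and length taken out, the FoxK2 KD change was -0.18 and was called (adjusted p = 0.0226).

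Foxo1, the FoxO factor best known for hepatic gluconeogenesis, was counted 43 to 173 times per sample. FoxK1 KD samples held 27.6, 33.2, 35.0 and 39.5 CPM at basal and 22.9, 23.4, 26.6 and 26.9 after insulin stimulation. FoxK2 KD samples held 30.4, 31.2, 31.3 and 33.0 CPM and then 19.7, 19.8, 25.1 and 29.4. Both genotypes were separated by treatment, narrowly so at the upper end of the insulin values. The log2 fold changes of -0.43 ± 0.13 (adjusted p = 0.0124) and -0.41 ± 0.13 (adjusted p = 0.0157) were called. Without FoxK1 KD basal replicate 3 the first was no longer called (adjusted p = 0.0584), nor was the second without FoxK2 KD insulin replicate 3 (adjusted p = 0.07) or 4 (adjusted p = 0.0651).

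In Control cells, Foxo1 stood at 27.3, 27.8, 30.9 and 34.9 CPM at basal and at 22.1, 24.0 and 24.5 after insulin stimulation. The groups were separate, but the log2 fold change of -0.36 ± 0.14 missed the threshold (adjusted p = 0.0618, unadjusted p = 0.017). It passed without Control basal replicate 3 (adjusted p = 0.0497) and with GC content and length taken out (adjusted p = 0.0462). These were 1 of the 7 fits that left out 1 sample and 1 of the 9 fits with all samples. The other fits did not call it, with an adjusted p of up to 0.198 and up to 0.162. DKD samples held 19.9, 27.5, 27.9 and 30.8 CPM at basal and 22.2, 24.4 and 26.7 after insulin stimulation, with overlap (log2 fold change -0.14 ± 0.14, adjusted p = 0.571). The lowest basal DKD value, that of replicate 3, rested on 43 counts in the smallest library.

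Foxo6, better known from the brain than from the liver, had 3 to 36 counts per sample and was not called for insulin in any genotype. Control samples had 2.2, 3.5, 3.6 and 7.1 CPM at basal and 2.9, 3.1 and 4.4 after insulin stimulation, and FoxK1 KD samples 2.4, 2.8, 3.4 and 5.3 CPM against 1.1, 2.5, 3.7 and 5.2. FoxK2 KD samples went from 3.3, 3.7, 3.8 and 5.0 CPM at basal to 5.5, 5.5, 6.1 and 6.3, the one separate pair of groups for Foxo6 here. DKD samples had 5.4, 6.0, 8.3 and 8.4 CPM against 4.1, 4.3 and 8.0. The log2 fold changes were -0.21 ± 0.36 in Control, -0.10 ± 0.38 in FoxK1 KD, 0.55 ± 0.30 in FoxK2 KD (adjusted p = 0.166) and -0.29 ± 0.30 in DKD cells. The 95% interval in Control ran from -0.94 to 0.53, so changes within it were not excluded there.

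**Figure D3:**
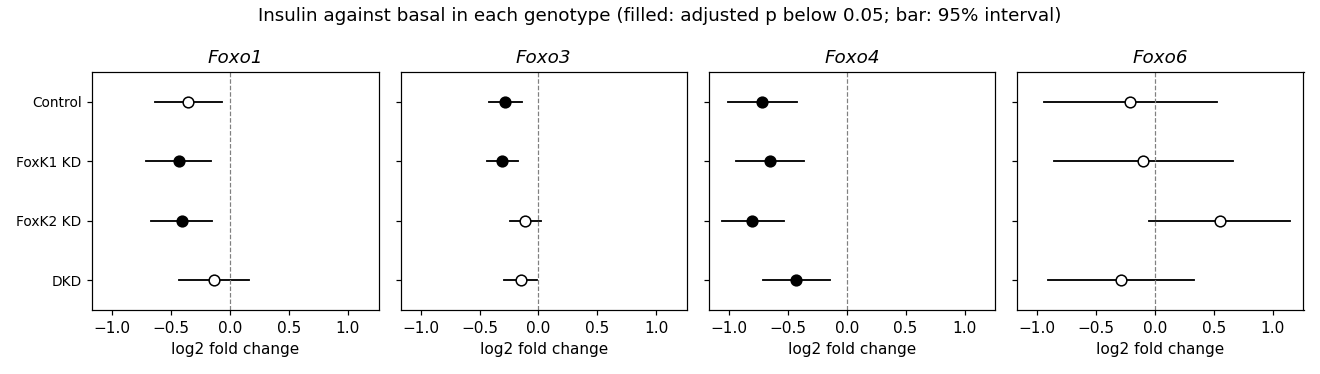
Log2 fold change of insulin against basal (horizontal axis) in each genotype (vertical axis) for the FoxO genes, with the 95% interval as a line and filled points for an adjusted p below 0.05. All Foxo4 points are filled, from -0.80 in FoxK2 KD to -0.43 in DKD cells, and the Foxo6 intervals cross 0.

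Whether FoxK knockdown altered the insulin effect was tested as the difference between the effect in a knockdown and that in Control. None of the 4 FoxO genes was called in any of the 3 differences by edgeR, DESeq2 or limma-voom, and none had an unadjusted p below 0.05. For FoxK1 KD and FoxK2 KD cells, edgeR called 0 of all 11368 genes (0%), with 1519 and 625 at an unadjusted p below 0.05. DESeq2 called 24 and 0 genes there, and limma-voom 0 in both. For DKD cells 1.54% of all genes were called (175, and from 60 without DKD insulin replicate 2 to 358 without Control basal replicate 1). The Control effect crossed the divide between libraries described above and the DKD effect did not. What separates those libraries thus cannot be told apart from the DKD difference. The differences for DKD cells, on the log2 scale, were 0.22 for Foxo1 (95% interval -0.19 to 0.63), 0.13 for Foxo3 (-0.07 to 0.33), 0.29 for Foxo4 (-0.12 to 0.70) and -0.08 for Foxo6 (-1.06 to 0.89). The Foxo4 interval thus took in 0 as well as values close in size to the Control change of -0.72. The Foxo4 difference was 0.07 for FoxK1 KD (-0.35 to 0.48) and -0.08 for FoxK2 KD cells (-0.48 to 0.31). The smaller Foxo3 change in FoxK2 KD cells differed from that in Control by 0.17 (-0.03 to 0.36, adjusted p = 0.887). So the calls made in some genotypes and not in others were not shown to differ between them.

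The next question was whether loss of FoxK1 or FoxK2 changed the FoxO mRNAs at basal. Against Control, 0 of the 4 FoxO genes were called by edgeR in FoxK1 KD, FoxK2 KD or DKD cells, where 8.09%, 0.378% and 21.1% of all genes were called. At an unadjusted p below 0.05 there were 0, 0 and 1. DESeq2 likewise called 0 in each, and limma-voom called Foxo6 in DKD cells. Foxo3 stayed within 1 narrow range, with fold changes of 0.96 in FoxK1 KD (95% interval 0.878 to 1.05), 1 in FoxK2 KD (0.915 to 1.09) and 0.978 in DKD cells (0.894 to 1.07). The corresponding folds for Foxo4 were 0.927 (0.779 to 1.1), 1.05 (0.883 to 1.24) and 0.995 (0.835 to 1.19). With GC content and length taken out, the log2 fold change in DKD cells moved from -0.03 to -0.15 for Foxo3 (adjusted p = 0.0974). For Foxo4 it moved from -0.01 to -0.16 (adjusted p = 0.365). Foxo1 was 1.12-fold in FoxK1 KD cells (0.942 to 1.33), 1.04-fold in FoxK2 KD cells (0.878 to 1.24) and 0.893-fold in DKD cells (0.745 to 1.07). The values of the individual samples are those given above, and all of these groups overlapped Control.

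Foxo6 was the exception in size. Its basal DKD values of 5.4, 6.0, 8.3 and 8.4 CPM stood above 3 of the 4 Control values, and the fourth, Control replicate 1 at 7.1 CPM, lay among them. The log2 fold change was 0.79 ± 0.29 (adjusted p = 0.0512). Without Control basal replicate 1 it was 1.12 and was called (adjusted p = 0.00468). It was also called without DKD basal replicate 4 (0.90, adjusted p = 0.0381). Only these 2 of the 8 fits that left out 1 sample called it. The rest gave changes down to 0.60 and an adjusted p of up to 0.169. Among the 8 fits with all samples, only limma-voom called it, and changes ran from 0.61 to 0.86 (adjusted p up to 0.16). The comparison also crossed the divide between libraries described above, which cannot be told apart from it. FoxK1 KD and FoxK2 KD cells had log2 fold changes of -0.24 ± 0.32 and -0.01 ± 0.31 for Foxo6.

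DKD cells were also set against each single knockdown at basal. Of the FoxO genes, 1 was called against FoxK1 KD and 0 against FoxK2 KD cells (0 also by DESeq2 and limma-voom, and 1 at an unadjusted p below 0.05), where 26.3% and 17% of all genes were called. All 4 DKD values of Foxo6 lay above the FoxK1 KD values of 2.4, 2.8, 3.4 and 5.3 CPM and above the FoxK2 KD values of 3.3, 3.7, 3.8 and 5.0 CPM. The difference from FoxK1 KD cells was 1.02 ± 0.31 on the log2 scale (adjusted p = 0.0136), and that from FoxK2 KD cells was 0.80 ± 0.29 (adjusted p = 0.0556). These rest on 18 to 29 counts per DKD sample and 9 to 23 per single knockdown sample. With GC content and length taken out, the difference from FoxK1 KD cells was 0.57 (adjusted p = 0.227), and without DKD basal replicate 2 it was 0.89 (adjusted p = 0.0565). Foxo1 pointed the other way against FoxK1 KD cells, at -0.33 ± 0.13 with an adjusted p of 0.0569. It was called without FoxK1 KD basal replicate 1 (adjusted p = 0.0207) and without DKD basal replicate 2 (adjusted p = 0.0331). These were 2 of the 8 fits that left out 1 sample, and the others were not called (changes down to -0.24 in size, adjusted p up to 0.189). The lowest DKD value, 19.9 CPM in replicate 3, rested on 43 counts.

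After insulin stimulation, 0 of the 4 FoxO genes were called against Control by edgeR, DESeq2 or limma-voom in any knockdown, where 3.59% of all genes were called in FoxK1 KD, 0.0264% in FoxK2 KD and 1.21% in DKD cells. In FoxK2 KD cells 2 had an unadjusted p below 0.05, and in FoxK1 KD and DKD cells 0. Foxo6 was higher in all 4 FoxK2 KD samples than in all 3 Control samples, by 0.74 ± 0.35 on the log2 scale (unadjusted p = 0.0385, adjusted p = 0.789). Foxo3 in FoxK2 KD cells differed by 0.17 ± 0.07 (unadjusted p = 0.0227, adjusted p = 0.764), with 1 of the Control values, 268.8 CPM, inside the FoxK2 KD range. In DKD cells Foxo4 was at 23.6, 27.8 and 29.4 CPM against 19.5, 22.9 and 24.7 in Control, a difference of 0.28 ± 0.16 (adjusted p = 0.475).

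**Figure D4:**
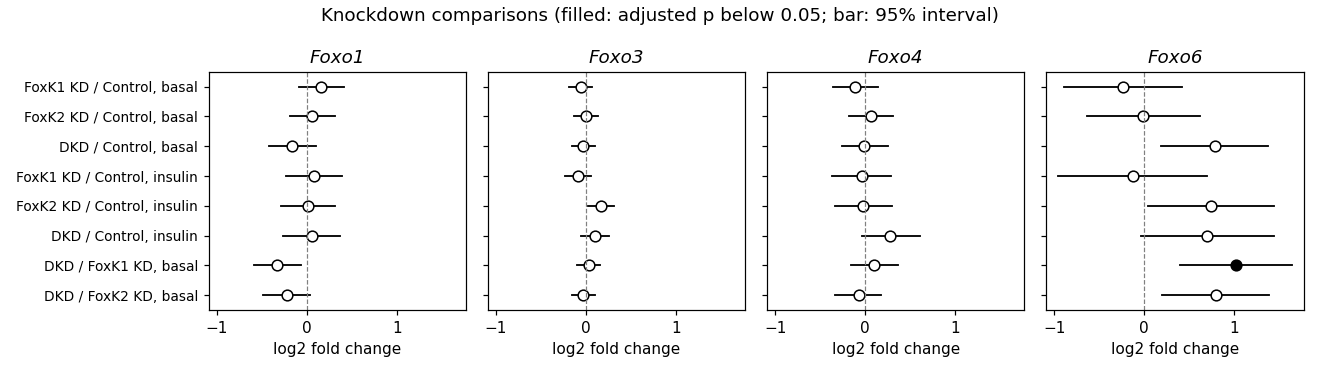
Log2 fold change (horizontal axis) of the FoxO genes in 8 comparisons between genotypes (vertical axis), with the 95% interval as a line and filled points for an adjusted p below 0.05. The only filled point is Foxo6 in DKD against FoxK1 KD cells at 1.02, and the Foxo3 intervals are the narrowest.

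Ordered by mean CPM, the 8 groups fell into the 4 basal groups followed by the 4 insulin groups for Foxo1, Foxo3 and Foxo4. For Foxo4 the lowest basal group, FoxK1 KD at 34.0 ± 0.8 CPM (SD, n = 4), did not overlap the highest insulin group, DKD at 26.9 ± 3.0 (n = 3). Foxo3 ranged from 297.6 ± 9.2 CPM in basal FoxK2 KD cells (n = 4) to 230.9 ± 7.1 in insulin-stimulated FoxK1 KD cells (n = 4). Along the Foxo3 order, insulin-stimulated FoxK2 KD cells (275.3 ± 10.5 CPM, n = 4) and DKD cells (262.2 ± 3.7, n = 3) were the sole neighbours without overlap, and neighbours in the Foxo1 order all overlapped. The Foxo6 order differed, with basal DKD cells (7.0 ± 1.6 CPM, n = 4) first, insulin-stimulated FoxK2 KD cells (5.8 ± 0.4, n = 4) second and insulin-stimulated FoxK1 KD cells (3.1 ± 1.7, n = 4) last, and all neighbours overlapped.

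As a description across the 30 samples, which share the 8 groups, log2-CPM of Foxo3 and Foxo4 correlated with a Pearson r of 0.68, Foxo1 and Foxo4 with 0.56 and Foxo1 and Foxo3 with 0.55. Once the group means were removed, r was -0.10, 0.03 and 0.38. The likeness of Foxo4 to Foxo3 and Foxo1 thus lay between groups rather than within them. Genes whose log2-CPM followed a FoxO gene most closely were Cln6, Hsd17b11 and Fip1l1 for Foxo4 (each with r = 0.89), Gfra1, Bbs2 and Mfsd1 for Foxo3 (0.86), and Grsf1, Fbxl17 and Cutal for Foxo1 (0.81, 0.80 and 0.80). For Foxo6 they were P2rx4, Ogdhl and Ppp1r3c (0.72, 0.71 and 0.71). The median r over the 9406 or 9407 genes compared with a member was 0.01.

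Genes known to be activated by FoxO proteins were examined as a list of 39, of which 32 were tested. The list was chosen with earlier results of these data known, so its shares are a description. The gluconeogenic genes G6pc and Pck1, as well as Igfbp1, Apoc3, Fasl, Tnfsf10 and Trim63, had too few counts in AML12 cells. With insulin stimulation, 17 of the 32 fell and 3 rose in Control cells, 16 fell and 2 rose with FoxK1 KD, 14 fell and 2 rose with FoxK2 KD and 13 fell and 2 rose in DKD cells. Those that fell were 53.1%, 50%, 43.8% and 40.6% of the genes tested on the list, beside 13.1%, 15.4%, 13.7% and 7.99% of all genes. The median log2 fold change of the list was -0.39, -0.35, -0.24 and -0.29 in these genotypes, beside -0.01 to 0.01 for all genes tested. In Control cells, 5 of the 9 tested genes of metabolism and insulin signalling fell, 5 of the 10 of cell cycle and DNA repair, 4 of the 7 of autophagy and atrophy, both of the tested apoptosis genes (Bbc3 and Bcl2l11) and 1 of the 4 of stress defence.

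The steepest falls were in Depp1, an autophagy regulator induced by FoxO, Fbxo32, the atrophy ubiquitin ligase atrogin-1, Txnip, a thioredoxin inhibitor that limits glucose uptake, and Irs2, the insulin receptor substrate. Depp1 went from 9.5 to 23.8 CPM at basal to 1.26 to 3.43 after insulin stimulation in Control cells, a log2 fold change of -2.58 ± 0.34 (adjusted p = 7.15e-07). Fbxo32 went from 74.6 to 90.4 CPM to 20.8 to 24.3 (-1.86 ± 0.11, adjusted p = 3.01e-14). None of the insulin-stimulated samples reached the basal range of either gene. Txnip changed by -1.72 ± 0.27 and Irs2 by -1.47 ± 0.11. The 3 genes that rose in Control cells, named after their values were seen, were Nampt (0.55), which makes NAD, Becn1 (0.41), an autophagy factor, and Sod2 (0.26), the mitochondrial superoxide dismutase.

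**Figure D5:**
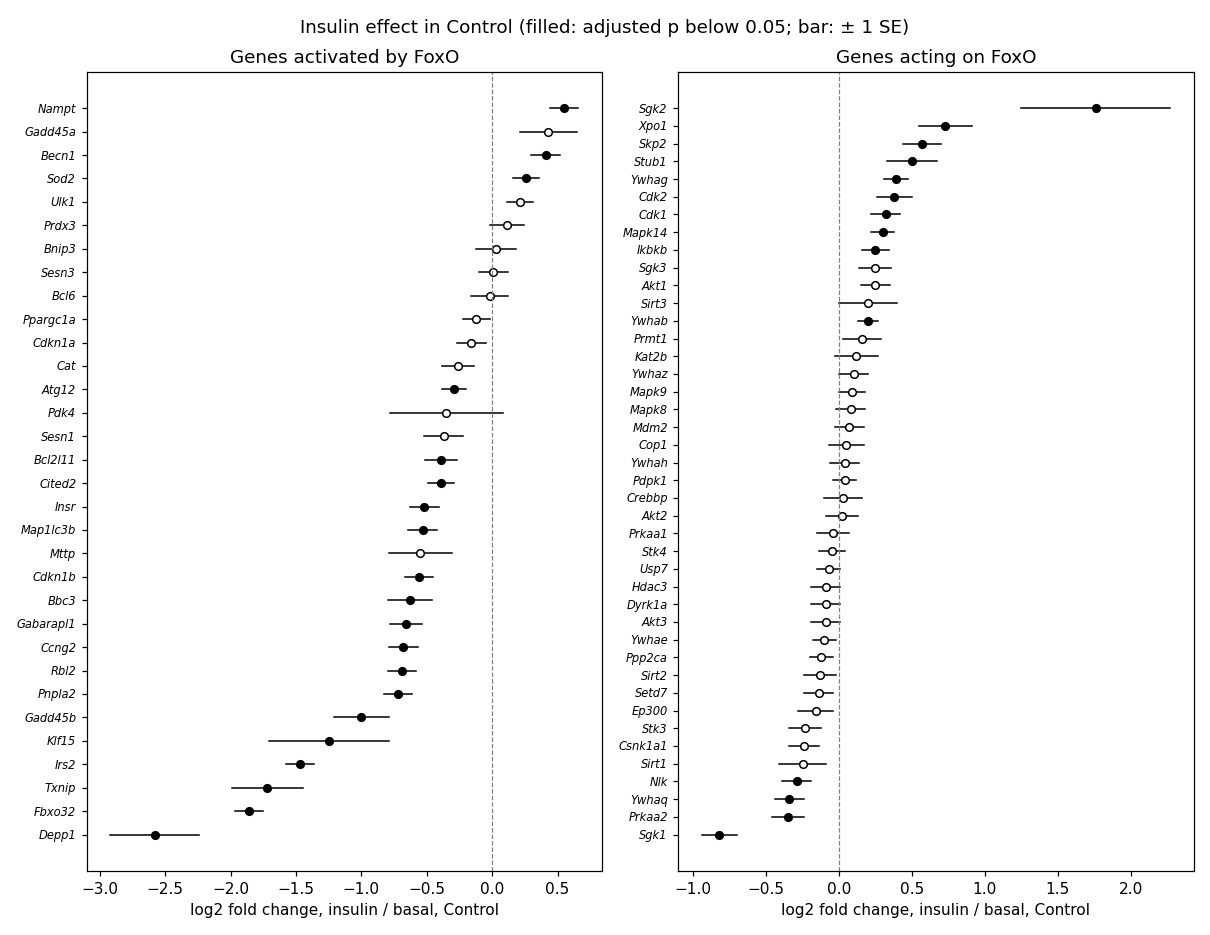
Log2 fold change of insulin against basal in Control cells (horizontal axis, ± 1 SE) for the 32 tested genes activated by FoxO (left) and the 42 tested genes that act on FoxO (right), with filled points for an adjusted p below 0.05. On the left 17 filled points lie below 0 and 3 above; on the right 10 lie above and 4 below.

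At basal, 4 genes of the same list were higher and 3 lower in DKD than in Control cells. These were 21.9% of the genes tested on the list, close to the 21.1% called over all genes, and the median was 0.06, beside 0.00. The autophagy kinase gene Ulk1 rose by 0.63 ± 0.09 (adjusted p = 5.34e-06), from 54.2 to 71.8 CPM in Control to 92.2 to 106 in DKD cells, and the DNA damage gene Gadd45a by 0.81 ± 0.19 (adjusted p = 0.00307). Bnip3, a mitophagy receptor, fell by 0.91 on the log2 scale (SE 0.15, adjusted p = 5.96e-05), from 39.8 to 46.4 CPM to 20.4 to 25.9. Cdkn1b, the cell cycle inhibitor p27, fell by 0.53 (SE 0.10, adjusted p = 0.000283), from 189 to 318 CPM to 169 to 194, with overlap. The remaining calls, named after their values were seen, were Becn1 (0.34), Fbxo32 (0.31) and Ccng2 (-0.36). None of the 9 tested genes of metabolism and insulin signalling passed the test there. Leaving out Control basal replicate 1 raised the number of higher genes from 4 to 8 and left 3 lower. Against the same Control samples, 4 genes of the list rose and 3 fell in FoxK1 KD cells (21.9%, beside 8.09% of all genes), whereas 0 of 32 were called for FoxK2 KD. Over all genes, the FoxK1 KD calls went from 920 to 46 when only the groups compared were fitted, and the list was not recounted there.

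Genes whose products act on FoxO proteins formed the other list, 43 genes of which 42 were tested, also chosen with earlier results known. In Control cells 10 rose and 4 fell with insulin stimulation, 33.3% of those tested beside 25.4% of all genes, with a median of 0.04. The kinase gene Sgk1, whose product phosphorylates FoxO proteins at sites shared with Akt, fell by 0.82 on the log2 scale (SE 0.12, adjusted p = 4.99e-06), from 49.5 to 72 CPM to 32.2 to 38. Xpo1, the nuclear exporter, rose by 0.73 ± 0.18 (adjusted p = 0.00271), and the ubiquitin ligase genes Skp2 and Stub1 by 0.57 ± 0.13 and 0.50 ± 0.17. The Akt genes were not called. In FoxK1 KD cells 10 rose and 10 fell, in FoxK2 KD cells 13 and 7, and in DKD cells 6 and 2. These calls were 47.6%, 47.6% and 19% of those tested, beside 31.6%, 28.1% and 16.3% of all genes.

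At basal, 3 of the 42 were higher and 9 lower in DKD than in Control cells, with a median of -0.13 beside 0.00 for all genes tested. Called genes made up 28.6% of the list and 21.1% of all genes, and lower ones 21.4% and 10.8%. Sgk1 (0.47 ± 0.10, adjusted p = 0.00136) and Stub1 (0.63 ± 0.15, adjusted p = 0.00317) rose. Stk3, which encodes the MST2 kinase, fell from 46.5 to 55.3 CPM to 32.7 to 40.6 (-0.54 ± 0.10, adjusted p = 0.000349), and the deacetylase gene Sirt1 from 16.7 to 25 CPM to 12.3 to 17.6 (-0.54 ± 0.16, adjusted p = 0.0121). By kind, 4 of the 20 kinase genes, 3 of the 9 genes of acetylation and methylation and 2 of the 6 of ubiquitin and phosphatase were lower, and none of the 7 tested genes of 14-3-3 proteins and export was called. In FoxK1 KD cells 4 of the 42 rose and 5 fell against Control at basal (21.4%, beside 8.09% of all genes), and in FoxK2 KD cells 0 were called. This list was not recounted either with only the groups compared.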

How the data were processed

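RNA-seq counts of 30 AML12 samples were used as the authors deposited them, whole-number counts of reads per Ensembl gene without normalization. Submitters' processing notes name CASAVA 1.8, STAR 2.4.2a, featureCounts and GRCm38.p4. The annotation, strand setting and treatment of reads matching several places are not given in the sources used here. Samples were grouped by their labels. Symbols, exon lengths and GC content came from GENCODE M21. The FoxO genes, gene lists and tests were chosen with earlier results of these data known.

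Genes passing filterByExpr (11368) were normalized by TMM and fitted in 1 model of the 8 groups with edgeR 4.0.16 in R 4.3.3 (estimateDisp, glmQLFit, glmQLFTest), with Benjamini-Hochberg adjustment and a threshold of 0.05. The fit was tested on simulated data. The named list genes were up to 4 per list called with the largest change, at a mean log2-CPM of at least 2, for insulin in Control and for DKD against Control at basal. Likeness used log2-CPM (prior count 2) among genes with a mean of at least 3. RPKM was computed from the counts. Alternatives were DESeq2 1.42.0, limma-voom 3.58.1, filters of 1 count in any sample or 10 in every sample, only the groups compared, a replicate block, GC content and length taken out, both together, each sample left out, and thresholds of 0.25 without or with 1.5-fold. Figures were drawn with matplotlib.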

Additional observations from a re-analysis of the deposited data

Results flagged for a closer look

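Foxo3 in basal Control replicate 1, at 324.4 CPM, stood apart from the other samples of its group, which held 285.7, 288.6 and 291.5 CPM. The gap to the nearest sample was 0.850 of the range of the group, above Dixon's 95% critical value for 4 samples, a limit that chance passes in about 1 of 20 groups. Every FoxO gene was screened in every group of 4 samples, so a single flag can come by chance. Without Control basal replicate 1, the highest number of genes was called in DKD against Control at basal (3063, against 2398 with it) and the lowest in FoxK1 KD against Control at basal (408, against 920), among the fits that left out 1 sample of the groups compared. The Foxo3 insulin effect in Control was called in all 7 fits that left out 1 sample.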

How the results depend on the processing

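Foxo4 kept its fall with insulin stimulation, and its call, in Control, FoxK1 KD and FoxK2 KD cells under every alternative run. The fit with a replicate block changed no call of a FoxO gene (Foxo4 in DKD cells -0.44, Foxo6 in DKD against FoxK1 KD cells 1.03), and same-numbered samples did not deviate together (mean correlation -0.013 over 99 pairs, beside 0.004 over 294 others), so the numbers were not taken as pairs. Foxo6 could not be fitted with 10 counts required in every sample. Causes of the changes given here were not tested, and all values are log2 fold changes unless said otherwise.

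With GC content and length taken out, Foxo1 for insulin in Control (-0.37) and Foxo3 for insulin in FoxK2 KD cells (-0.18) became called and Foxo6 in DKD against FoxK1 KD cells (0.57) was lost. With the block added to that, Foxo3 (-0.18) was called, and Foxo6 (0.57) and Foxo4 for insulin in DKD cells (-0.39) were not. The latter was also lost when genes with 1 count were kept (-0.42). Groups compared only cost Foxo3 for insulin in Control (-0.27) and gave Foxo6 in DKD against FoxK2 KD cells (0.78). Foxo6 in DKD against Control at basal was called by limma-voom (0.86), and Foxo1 in DKD against FoxK1 KD cells with 10 counts in every sample (-0.33). A threshold of 0.25 added Foxo1 for insulin in Control (-0.36), Foxo3 in FoxK2 KD (-0.11) and DKD cells (-0.15), Foxo6 in FoxK2 KD cells (0.55), Foxo6 in DKD against Control (0.79) and FoxK2 KD cells (0.80), and Foxo1 in DKD against FoxK1 KD (-0.33) and FoxK2 KD cells (-0.22). With 1.5-fold required as well, only Foxo6 in DKD against Control (0.79) and FoxK2 KD cells (0.80) was added, and Foxo1 for insulin in FoxK1 KD (-0.43) and FoxK2 KD cells (-0.41), Foxo3 in Control (-0.28) and FoxK1 KD cells (-0.31) and Foxo4 in DKD cells (-0.43) were lost.

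Leaving out 1 sample at a time changed calls within these ranges: Foxo1 for insulin in Control -0.40 to -0.28, in FoxK1 KD -0.53 to -0.35 and in FoxK2 KD cells -0.53 to -0.34, Foxo4 in DKD cells -0.52 to -0.36, Foxo6 in DKD against Control 0.60 to 1.12, against FoxK1 KD 0.89 to 1.23 and against FoxK2 KD cells 0.67 to 0.94, and Foxo1 in DKD against FoxK1 KD cells -0.42 to -0.24.

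Values that turned direction were uncalled throughout. With GC content and length taken out, and then with the block, these were Foxo6 in FoxK1 KD (0.04, 0.04) and FoxK2 KD cells (0.07, 0.05) against Control, Foxo6 for insulin in Control (0.09, 0.06), the FoxK1 KD difference in insulin effect of Foxo1 (0.00, 0.01), Foxo4 (-0.08, -0.07) and Foxo6 (-0.35, -0.31), and Foxo3 (-0.07, -0.07) and Foxo4 (-0.13, -0.13) in DKD against FoxK1 KD cells. With limma-voom they were Foxo6 in FoxK2 KD cells at basal (0.09), Foxo1 there after insulin stimulation (-0.01) and the FoxK1 KD difference of Foxo6 (-0.10), and with genes of 1 count kept, Foxo3 in FoxK2 KD cells (-0.01). With samples left out, the ranges against Control at basal were -0.45 to 0.11 (Foxo6) in FoxK1 KD, -0.02 to 0.05 (Foxo3) and -0.20 to 0.33 (Foxo6) in FoxK2 KD, and -0.06 to 0.01 (Foxo3) and -0.08 to 0.07 (Foxo4) in DKD cells. After insulin stimulation they were -0.19 to 0.05 (Foxo4) and -0.49 to 0.16 (Foxo6) in FoxK1 KD, -0.11 to 0.08 (Foxo1) and -0.14 to 0.10 (Foxo4) in FoxK2 KD, and -0.04 to 0.12 (Foxo1) in DKD cells. For insulin, Foxo6 ran from -0.39 to 0.14 in Control and from -0.46 to 0.18 in FoxK1 KD cells. Differences in insulin effect ran from -0.17 to 0.01 (Foxo1), -0.09 to 0.02 (Foxo3), -0.08 to 0.16 (Foxo4) and -0.26 to 0.39 (Foxo6) for FoxK1 KD, -0.17 to 0.02 (Foxo1) and -0.20 to 0.03 (Foxo4) for FoxK2 KD, and -0.51 to 0.10 (Foxo6) for DKD cells. DKD cells ran from -0.01 to 0.05 (Foxo3) against FoxK1 KD and from -0.14 to 0.00 (Foxo4) against FoxK2 KD cells.

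Over all genes, fitting only the groups compared lowered the number called from 920 to 46, 43 to 1 and 2398 to 1299 for FoxK1 KD, FoxK2 KD and DKD against Control at basal, from 138 to 40 for DKD cells after insulin stimulation, from 2890 to 1085 for insulin in Control and from 175 to 32 for the DKD difference. It raised the number for DKD against FoxK1 KD (2991 to 3360) and FoxK2 KD cells (1933 to 2863) and for insulin in FoxK1 KD (3588 to 3869), FoxK2 KD (3193 to 3733) and DKD cells (1853 to 2359). Taking out GC content and length moved it from 43 to 117 for FoxK2 KD at basal, from 2991 to 1205 and 1933 to 914 for DKD against FoxK1 KD and FoxK2 KD cells, and from 175 to 115 for the DKD difference. DESeq2 called 83 rather than 43 genes for FoxK2 KD at basal and 10 rather than 3 after insulin stimulation. With 1 sample left out, the number ran from 408 (without Control basal replicate 1) to 1247 for FoxK1 KD and from 5 (without FoxK2 KD basal replicate 3) to 128 (without Control basal replicate 4) for FoxK2 KD at basal. After insulin stimulation it ran from 227 (without FoxK1 KD insulin replicate 4) to 315, from 1 (without Control insulin replicate 2) to 7 (without FoxK2 KD insulin replicate 3) and from 66 (without Control insulin replicate 3) to 121 for FoxK1 KD, FoxK2 KD and DKD cells. The lowest were 1164 for insulin in DKD cells (without DKD insulin replicate 2) and 1053 for DKD against FoxK2 KD cells (without DKD basal replicate 1), and the FoxK1 KD difference reached 25 (without Control basal replicate 2). Among genes activated by FoxO in DKD against Control at basal, a threshold of 0.25 gave 11 higher and 5 lower genes. The depth limits Foxo6 most, with 3 to 36 counts per sample.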
